A study of Homo sapiens with 9 samples.

Results

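Transcription factor genes that help set liver and lung identity were examined, 8 in all: HNF4A, FOXA1, FOXA2, FOXA3, CEBPA, NKX2-1, GATA4 and GATA6. All probe sets annotated to these 8 genes by current symbol or alias were taken, which gave 11 of 49395 probe sets, for 7 of the 18132 genes that had a probe set of their own. FOXA1 and NKX2-1 had 2 probe sets each, GATA4 had 3, and FOXA2, FOXA3, CEBPA and GATA6 had 1 each. No probe set carried HNF4A in the annotation used, so HNF4A is not analysed here. The 3 probe sets named TTF1, an older name of NKX2-1, belong by their Entrez identifier to another gene and were left out. By RefSeq, NKX2-1 and FOXA1 lie on chromosome 14, GATA6 on chromosome 18, CEBPA and FOXA3 on chromosome 19 and FOXA2 on chromosome 20.

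The cells were R-HepG2, described in the labels as an insulin-resistant form of the human hepatoma line HepG2. After a night without serum they received biomineralized insulin (BI) for 4 h, insulin for 4 h, or plain DMEM medium for 4 h, with 40 ug/ml of insulin in both preparations. Each group had 3 arrays. The cell line tag reads HepG2 for the BI and insulin arrays and R-HepG2 for the medium arrays, while the protocols name R-HepG2 for all. No group received the mineral without insulin, so the effects of mineral and insulin cannot be told apart. The sources do not say whether replicates were separate cultures, so p-values cover the spread between these arrays, which may be technical.

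FOXA and GATA factors are pioneer factors: they bind sites in closed chromatin of the foregut endoderm, from which liver and lung both arise, and let other factors follow. In hepatocytes HNF4A, a nuclear receptor, and CEBPA, a leucine zipper factor, then drive genes for plasma proteins and metabolism. In lung epithelium NKX2-1, a homeodomain factor also made in thyroid, works with FOXA1, FOXA2 and GATA6 on surfactant genes. Insulin is known to act on FOXA2 and on FOXO1, another forkhead factor, mainly by phosphorylation, which messenger RNA arrays do not read.

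GATA6 fell with BI by 0.81 log2 against medium and by 0.77 against insulin. NKX2-1 rose with BI by 0.59 log2 against medium on its brighter probe set, while its other probe set was at -0.09 and was not called. CEBPA fell with BI by 0.35 log2 against medium, but BI differed from insulin by only -0.09, with no call. With insulin, CEBPA stood at -0.26 against medium, also not called. FOXA1 and FOXA2 passed no test, and insulin alone gave no call in any member. Values are log2 expression values as deposited, and a gene is called changed where limma's adjusted p was under 0.05 over all genes tested. A probe set was tested at the gene level if its mean was above 4.74 log2, the level below which the dimmest 40 percent of probe sets lay. Of the 11 probe sets, 6 passed this filter. They belong to 5 genes (FOXA1, FOXA2, CEBPA, NKX2-1 and GATA6), each tested by its brightest probe set. FOXA3 and GATA4 lay below the filter and were tested only among all 49293 probe sets other than control features.

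The start regions of the genes with the largest changes are shown so that the binding letters of the other members can be seen in them. Each line gives 250 bases before to 50 bases after a RefSeq transcript start (build GRCh38.p14), on the gene's own strand. Capitals mark matches to the letters searched. NKX2-1 has 2 listed windows on chromosome 14, both on the minus strand, at chr14:36520183-36520482 and chr14:36519507-36519806. GATA6 has 1 on chromosome 18, plus strand, at chr18:22169339-22169638.
NKX2-1, first window: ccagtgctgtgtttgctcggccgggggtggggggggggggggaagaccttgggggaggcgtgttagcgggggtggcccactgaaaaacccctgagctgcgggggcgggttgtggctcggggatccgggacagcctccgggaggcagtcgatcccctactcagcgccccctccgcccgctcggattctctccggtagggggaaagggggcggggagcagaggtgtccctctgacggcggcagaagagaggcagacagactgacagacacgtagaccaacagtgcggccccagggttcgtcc
NKX2-1, second window: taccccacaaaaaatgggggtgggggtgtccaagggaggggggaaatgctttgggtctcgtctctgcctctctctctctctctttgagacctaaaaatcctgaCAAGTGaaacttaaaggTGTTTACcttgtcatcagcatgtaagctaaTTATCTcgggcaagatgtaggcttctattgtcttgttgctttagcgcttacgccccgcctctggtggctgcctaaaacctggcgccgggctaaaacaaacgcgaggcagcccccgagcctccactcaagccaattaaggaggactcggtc
GATA6: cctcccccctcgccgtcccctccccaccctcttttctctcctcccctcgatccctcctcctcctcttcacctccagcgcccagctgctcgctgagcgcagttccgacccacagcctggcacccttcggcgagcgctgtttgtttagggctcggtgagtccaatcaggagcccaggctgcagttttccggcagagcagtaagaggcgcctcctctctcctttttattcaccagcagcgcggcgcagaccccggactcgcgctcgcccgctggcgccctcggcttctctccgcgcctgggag

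Letters of 3 motifs were found in the second NKX2-1 window. The forkhead letters TGTTTAC lie at -130 to -124 from the start, on the gene's strand. The GATA letters AGATAA lie at -100 to -95 on the opposite strand, so they read TTATCT above. The NKX2-1 letters CAAGTG lie at -147 to -142. Among 35116 promoter windows of this length, TGTTTAC was present on either strand in 3.42%, AGATAA in 10.3% and CAAGTG in 11.5%. The first NKX2-1 window and the GATA6 window held none of the 7 motifs searched, which were these 3 and, with their shares of all windows, TTGCNNAA for CEBP (10.5%), CAAAGTCCA for HNF4 (0.384%), TGATGCAA for ATF4 with CEBP (0.866%) and the heat shock element (0.49%). Of 8 windows for 6 members, 1 of the 2 HNF4A windows held AGATAA at -26 to -21 and the other held none, the FOXA1 window held CAAGTG at -12 to -7 on the opposite strand, and those of CEBPA and FOXA3 held none. G and C made up 69.0% of the first NKX2-1 window, 52.0% of the second and 66.67% of the GATA6 window, against a median of 58.67% over all windows.

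The labelled cell type was checked against marker genes, each by its brightest probe set. Hepatocyte genes were mostly dim: 28 of 39 lay below the filter, where 12239 of all 18132 genes were above it. Albumin (ALB) averaged 3.41 log2 with BI, 3.49 with insulin and 3.28 in medium, and none of its 3 probe sets passed the filter. The fetal liver protein AFP averaged 2.93 with BI, 2.87 with insulin and 3.00 in medium. All probe sets of APOB, SERPINA1 and FGB, which encode plasma proteins made in liver, were below the filter too. APOA1 averaged 5.90 with BI, 5.94 with insulin and 5.77 in medium, and TTR averaged 5.34 with BI, 5.21 with insulin and 5.15 in medium, both above the filter. The highest of the list was F2, prothrombin, at 6.48 over all 9 arrays. Of their probe sets, 3 of 6 passed the filter for APOA1, 1 of 1 for TTR and 1 of 3 for F2. Of 7 fetal liver and hepatoma genes, AFP among them, 3 were above the filter: PEG10 at 9.94, TOP2A at 11.1 and SPINK1 at 4.97 over all 9 arrays. The levels of ALB, AFP, APOB, SERPINA1 and FGB go against the hepatoma label, while APOA1, TTR, F2, PEG10, SPINK1 and TOP2A, the last a gene of dividing cells, lay above the filter. The hepatoma label is kept here only as a label.

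Genes of other tissues were read in the same way. Of 21 lung epithelial genes, 15 were above the filter, near the share over all genes (12239 of 18132). Only 2 of 5 probe sets of SFTPB and 3 of 7 of SFTPC passed it. The surfactant protein gene SFTPB averaged 5.15 log2 with BI, 5.04 with insulin and 5.01 in medium. SFTPC averaged 6.04 with BI, 5.90 with insulin and 5.92 in medium, and NAPSA, a surfactant-processing protease, 6.52 with BI, 6.41 with insulin and 6.43 in medium. SCGB1A1, the club cell secretory protein, lay below the filter at 3.40 with BI, 3.26 with insulin and 3.18 in medium. Of 11 intestine and foregut genes, 1 was above the filter, the homeobox gene CDX2 at 4.93, which was not called in either BI comparison (adjusted p = 0.29 against medium and 0.69 against insulin). All 8 mesenchymal genes were above it, with VIM, an intermediate filament gene, at 13.1. Of 8 general epithelial genes, 6 were above it, but EPCAM at 3.24 and CDH1 at 3.61, both adhesion genes, were not. In bulk RNA, fewer cells of a type and less RNA per cell cannot be told apart.

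**Figure D1:**
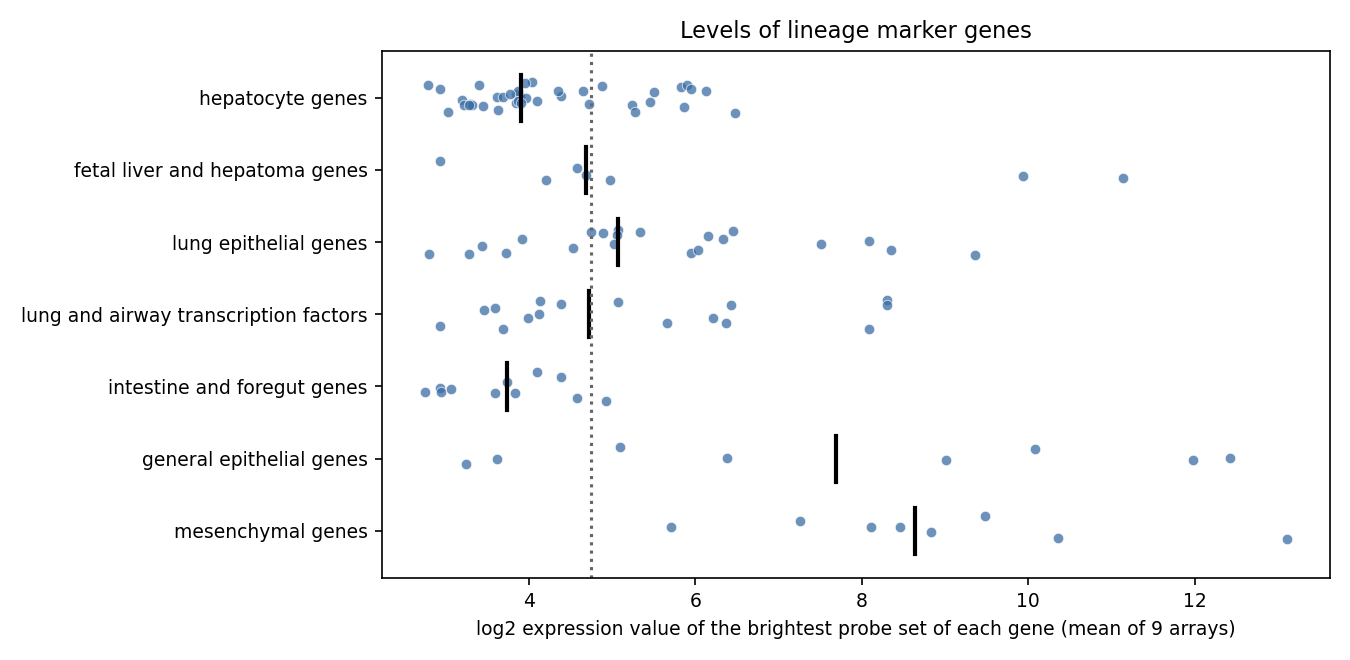
Level of each marker gene by list (points, log2 value of the brightest probe set, mean of 9 arrays), with the list median as a vertical bar and the filter level of 4.74 log2 as a dotted line. Most hepatocyte genes lie left of the line (28 of 39), all 8 mesenchymal genes right of it.

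Brightness alone does not show that a gene was expressed, since detection calls were not used here. The arrays carry 23 background features named by their number of G and C bases. These read from 2.27 log2 to 9.94 log2, higher with more G and C. The feature named for 21 such bases read 6.10 with BI, 6.06 with insulin and 6.09 in medium. The probe sequences of the members were not used here, so the background of each member is unknown. The background features differed little between groups: by -0.033 to 0.0885 for BI minus medium, by -0.0136 to 0.1299 for BI minus insulin and by -0.0721 to 0.0161 for insulin minus medium. Some of these features hardly could differ, since they read the same on all 9 arrays, such as that named for 9 bases at 2.41. Others varied, such as that named for 22 bases, from 6.57 to 6.77 over the 9 arrays. Which features match the members is unknown without the probe sequences. The features therefore cannot show how the background of the members moved. The part of background in the changes of GATA6, NKX2-1 and CEBPA was not tested.

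**Figure D2:**
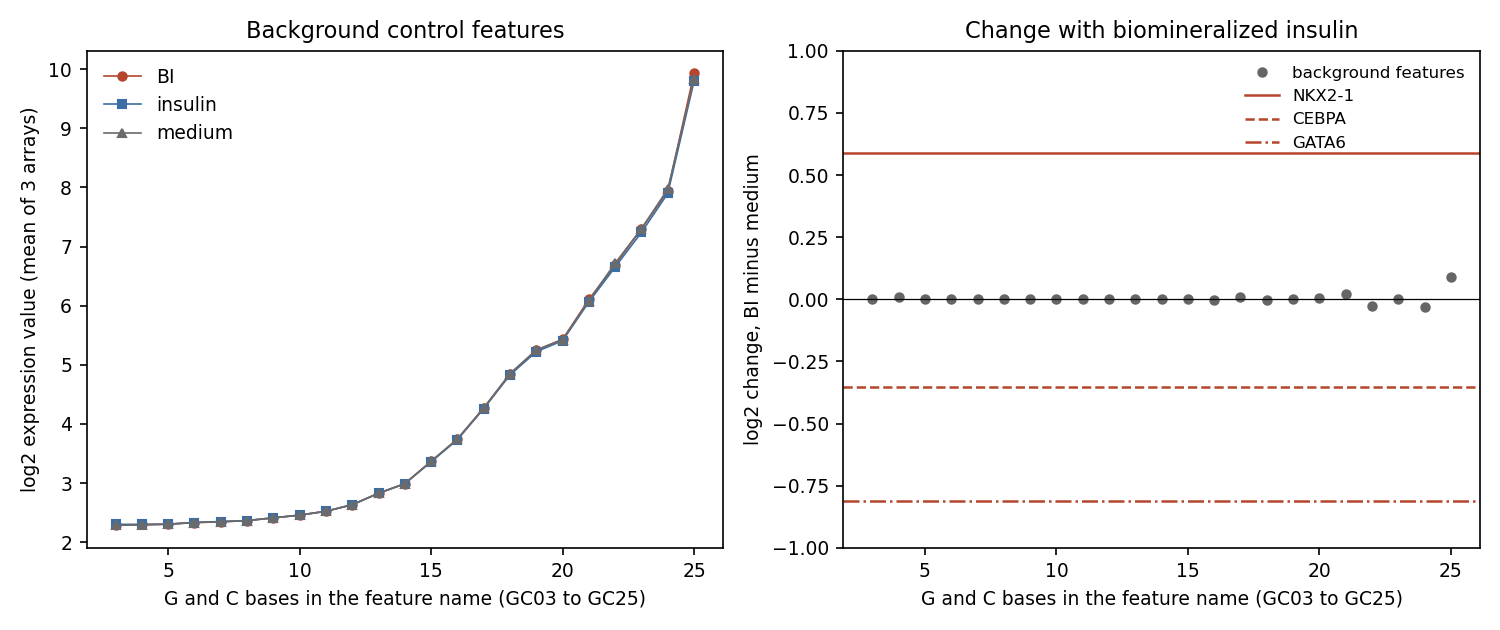
Left, mean log2 value of the 23 background features in each group (3 arrays each) against the G and C bases in their name, from 2.27 to 9.94. Right, their BI minus medium differences (points, -0.033 to 0.0885) beside the changes of NKX2-1 (0.59), CEBPA (-0.35) and GATA6 (-0.81) as lines.

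Array medians lay between 5.46 and 5.49 log2. The 12 poly-A spike-in probe sets, which read bacterial transcripts added to the RNA, averaged 7.80 ± 0.17 log2 on BI arrays, 7.39 ± 0.06 with insulin and 7.36 ± 0.08 in medium (SD, n = 3 each). The BI minus medium difference was 0.44 and the BI minus insulin difference 0.41 (exact permutation p = 0.1 for both, the smallest that 3 against 3 allows, two-sided, and 0.225 adjusted over 9 tests). With arrays centred on these controls, the median gene moved by -0.44 log2 in BI against medium, with 197 genes higher and 9347 lower, where the deposited values gave 3140 higher and 3090 lower. In BI against insulin the shift was -0.41, with 124 higher and 9482 lower, where the deposited values gave 2579 higher and 2854 lower. In insulin against medium it was -0.03, with 0 higher and 5 lower, where the deposited values gave 153 higher and 147 lower. Changes below are relative to the median gene. By construction, spike-in centring lowers each BI minus medium change by 0.44 and each BI minus insulin change by 0.41, so it enlarges the falls described below. It is named beside the members and beside genes whose call or direction it changed or whose rise it cut by over 1.5 times.

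GATA6, a zinc finger factor of foregut, lung and heart, had the largest change among the members. Its probe set 11723838_at read 6.68, 6.74 and 6.76 log2 on the BI arrays, 7.50, 7.44 and 7.53 on the insulin arrays and 7.60, 7.46 and 7.56 on the medium arrays. All 3 BI arrays lay below the other 6 arrays, while the insulin and medium arrays overlapped. The change was -0.81 ± 0.06 log2 for BI against medium (SE, 95% interval -0.94 to -0.69, adjusted p = 6.5e-09), a level 1.76-fold lower. Against insulin it was -0.77 ± 0.06 (-0.89 to -0.64, adjusted p = 1.8e-08), or 1.70-fold lower. After spike-in centring the BI against insulin change was -1.18. Insulin differed from medium by -0.05 ± 0.06 (-0.17 to 0.08, adjusted p = 0.78). Of 12239 genes tested, 253 (2.07%) had fallen at least as far as GATA6 in BI against medium. Under 22 alternative settings the BI against medium change of GATA6 ran from -1.25 to -0.73 and was called in each.

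GATA4, the related factor of liver bud and heart, was dim on all 3 probe sets. Probe set 11725540_a_at lay between 2.91 and 3.45 log2 over the 9 arrays, 11725541_a_at between 4.29 and 4.62, and 11725542_a_at between 4.58 and 4.77. The groups overlapped on each of them. BI minus medium differences were -0.04 (95% interval -0.27 to 0.19), 0.01 (-0.20 to 0.23) and -0.06 (-0.24 to 0.13), with adjusted p = 0.83, 0.94 and 0.70 over all probe sets. BI minus insulin differences were 0.11, 0.11 and -0.07 on the same probe sets, and insulin minus medium differences were -0.16, -0.09 and 0.01. None was called with the deposited values. After spike-in centring all 3 probe sets were called lower in BI against medium (-0.48, -0.43 and -0.50, adjusted p = 0.0014, 0.0065 and 0.0018) and in BI against insulin (-0.30, -0.31 and -0.48, adjusted p = 0.042, 0.048 and 0.0029).

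NKX2-1 gave different readings on its 2 probe sets. Probe set 11727742_a_at, the brighter, read 6.67, 6.75 and 6.77 log2 on the BI arrays, 6.41, 6.21 and 6.46 on the insulin arrays and 6.13, 6.20 and 6.10 on the medium arrays. The 3 groups did not overlap there, with BI highest and medium lowest, although the lowest insulin array (6.21) nearly met the highest medium array (6.20). Probe set 11752364_s_at read 5.65, 5.51 and 5.57 on the BI arrays, 5.86, 5.62 and 5.58 on the insulin arrays and 5.62, 5.62 and 5.76 on the medium arrays. There the groups overlapped.

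On 11727742_a_at the change of NKX2-1 was 0.59 ± 0.07 log2 for BI against medium (SE, 95% interval 0.43 to 0.74, adjusted p = 4.8e-06), or 1.50-fold higher, although after spike-in centring it was 0.15 and not called (adjusted p = 0.29, where alternatives gave 1.5e-06 to 0.29). Against insulin it was 0.37 ± 0.07 (0.21 to 0.53, adjusted p = 0.00061), and -0.044 after spike-in centring (adjusted p = 0.75, where alternatives gave 0.00050 to 0.75). As the mean of both probe sets, NKX2-1 stood at 0.25 in BI against medium, still called (adjusted p = 0.0036), and at 0.13 in BI against insulin, not called (adjusted p = 0.11). On 11752364_s_at alone the BI minus medium difference was -0.09 (95% interval -0.28 to 0.10, adjusted p = 0.51) and the BI minus insulin difference -0.11 (-0.30 to 0.08, adjusted p = 0.45). After spike-in centring this probe set was called lower, at -0.53 (adjusted p = 0.00055) and -0.52 (adjusted p = 0.00084), while the brighter probe set was not called. The gap between the probe sets was 1.16 ± 0.11 log2 on BI arrays, 0.68 ± 0.18 with insulin and 0.48 ± 0.13 in medium (SD, n = 3 each). BI minus medium, the gap differed by 0.68, and no BI array fell to the level of a medium array (exact permutation test over arrays, two-sided, p = 0.1, the smallest possible). Which transcripts the 2 probe sets read was not tested.

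CEBPA encodes a factor that holds hepatocytes and other cells in a differentiated, non-dividing state. Its probe set 11726294_s_at read 6.10, 6.01 and 6.14 log2 on the BI arrays, 6.18, 6.19 and 6.16 on the insulin arrays and 6.44, 6.51 and 6.35 on the medium arrays. The 3 groups did not overlap, with medium highest, and the BI and insulin arrays close together. The change was -0.35 ± 0.07 log2 for BI against medium (SE, 95% interval -0.50 to -0.21, adjusted p = 0.00038), or 1.28-fold lower. It was called under the 20 alternatives in which CEBPA was tested, between -0.79 (spike-in centring) and -0.29. CEBPA was not tested with the dimmest 60 percent left out or without cross-hybridizing probe sets. BI differed from insulin by -0.09 ± 0.07 (-0.24 to 0.05, adjusted p = 0.29), although after spike-in centring by -0.51 with a call (adjusted p = 0.00039, where alternatives gave 0.00039 to 0.59). The suffix of this probe set marks probes that can bind transcripts of several genes, so the reading is uncertain to that extent. The same holds for 11752364_s_at of NKX2-1.

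FOXA1 and FOXA2 encode the forkhead pioneer factors of liver, lung and other endoderm. FOXA1 probe set 11723333_at read 7.56, 7.57 and 7.60 log2 on the BI arrays, 7.62, 7.54 and 7.71 on the insulin arrays and 7.63, 7.60 and 7.60 on the medium arrays. These 9 values span 0.18 log2, and the groups overlapped. BI differed from medium by -0.03 ± 0.05 (SE, 95% interval -0.15 to 0.08, adjusted p = 0.65) and from insulin by -0.05 ± 0.05 (-0.16 to 0.07, adjusted p = 0.52). After spike-in centring these were -0.47 (adjusted p = 0.00031, where alternatives gave 0.00031 to 0.81) and -0.46 (adjusted p = 0.00051, where alternatives gave 0.00051 to 0.97), both called. The second FOXA1 probe set, 11748971_a_at, lay below the filter, between 3.63 and 3.88, and passed no test with the deposited values. After spike-in centring it was called at -0.45 against medium and -0.39 against insulin (adjusted p = 0.0035 and 0.012).

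FOXA2 probe set 11740933_a_at read 5.06, 4.84 and 4.82 log2 on the BI arrays, 4.74, 5.02 and 4.83 on the insulin arrays and 4.84, 4.64 and 5.00 on the medium arrays. The groups overlapped, and 1 medium array (4.64) lay below the filter level. BI differed from medium by 0.08 ± 0.11 (95% interval -0.15 to 0.31, adjusted p = 0.57) and from insulin by 0.04 ± 0.11 (-0.19 to 0.28, adjusted p = 0.79). After spike-in centring these turned to -0.36 (adjusted p = 0.017, where alternatives gave 0.017 to 0.98) and -0.37 (adjusted p = 0.015, where alternatives gave 0.015 to 0.93). FOXA3, the third liver forkhead gene, read between 3.31 and 3.76 on probe set 11727662_at, below the filter on all 9 arrays. Its BI minus medium difference was -0.08 (95% interval -0.33 to 0.17, adjusted p = 0.67 over all probe sets), and its BI minus insulin difference was -0.0040. After spike-in centring FOXA3 was called lower, at -0.52 (adjusted p = 0.00072) and -0.42 (adjusted p = 0.0071).

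**Figure D3:**
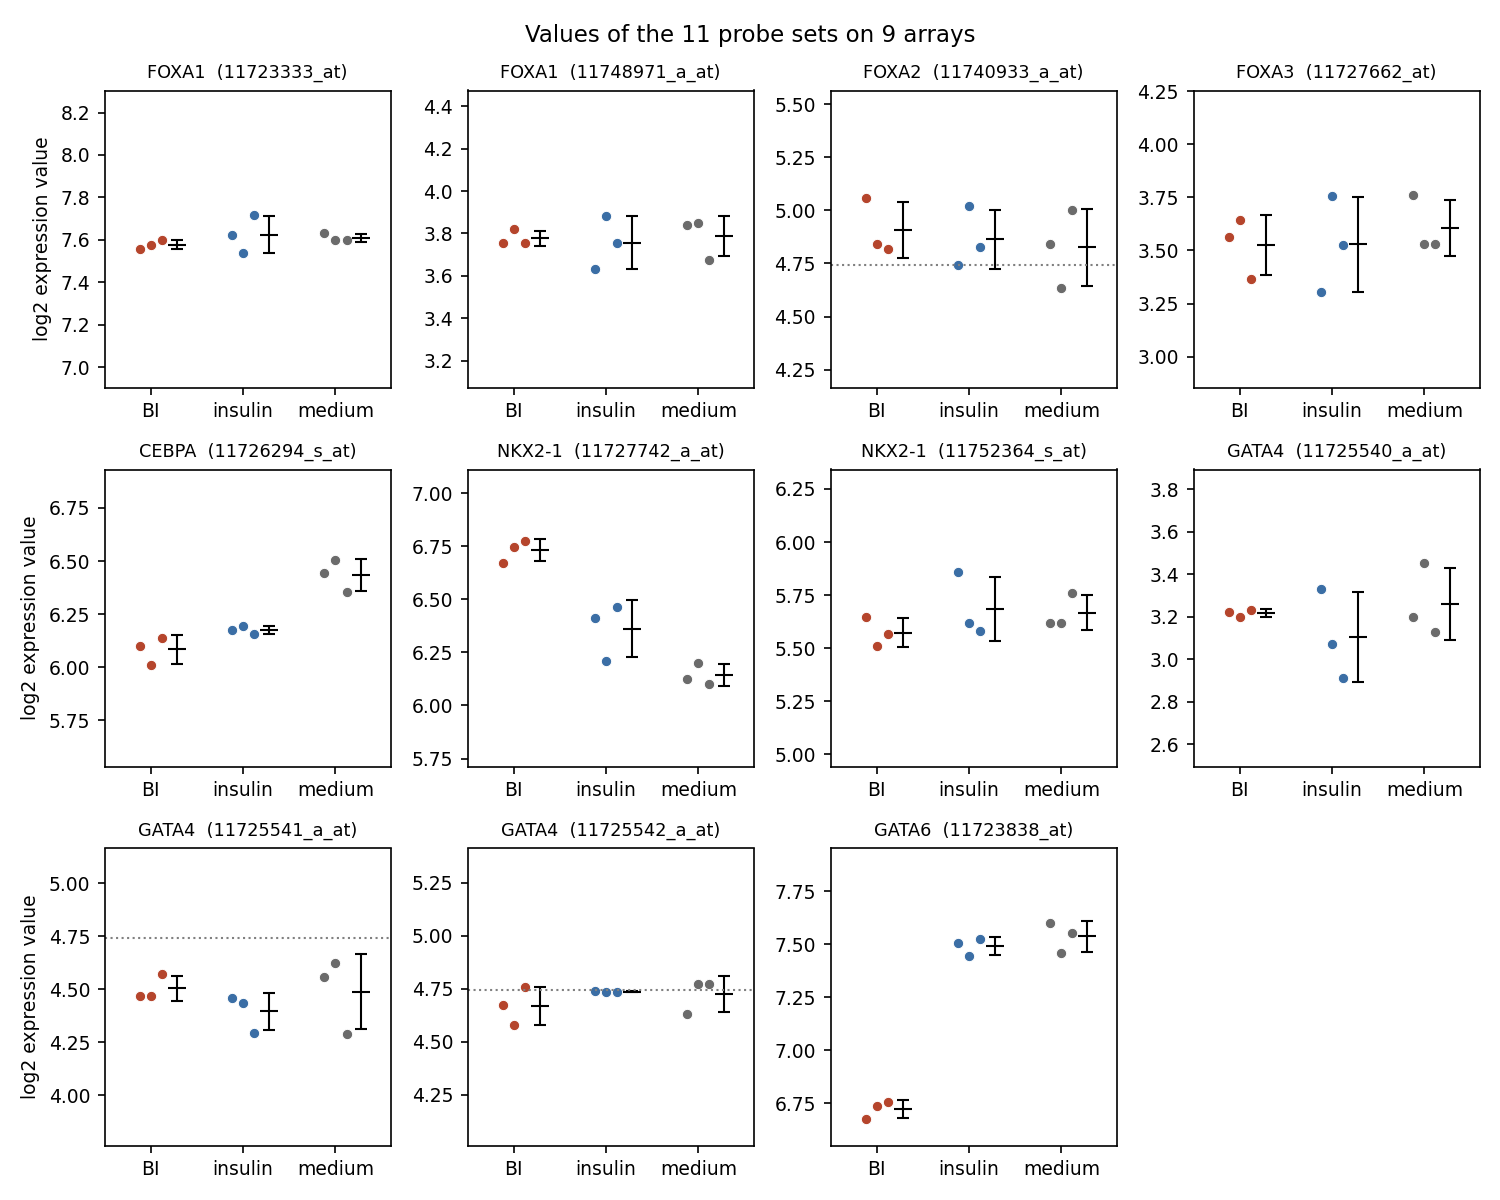
Log2 value of each of the 11 probe sets on the 9 arrays (points), with group mean and SD beside them, in BI, insulin and medium, 3 arrays each. A dotted line marks the filter level of 4.74 where it falls within a panel, and all panels span the same number of log2 units. GATA6 is lowest in BI, NKX2-1 on 11727742_a_at highest in BI, and CEBPA highest in medium.

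With BI against medium, 3 of 5 tested members were called, 1 higher and 2 lower, where 50.9% of all tested genes were called (25.7% higher and 25.2% lower). Over all probe sets it was 3 of 11, where 27.6% of all probe sets were called. After spike-in centring 4 of 5 tested members were called, where 9544 of 12239 tested genes were called, most of them lower. Tested among all probe sets, 10 of 11 were then called, and the share over all probe sets is not given here. With the dimmest 60 percent left out, or without cross-hybridizing probe sets, 2 members were called, since CEBPA was then not tested. Both shares with the deposited values are near those of all features. With BI against insulin, 2 of 5 members were called, GATA6 lower and NKX2-1 higher, where 44.4% of all tested genes were called (21.1% higher and 23.3% lower). Over all probe sets it was 2 of 11, where 22.5% of all probe sets were called. After spike-in centring 4 of 5 tested members were called, where 9606 of 12239 tested genes were called, most of them lower. Tested among all probe sets, 10 of 11 were then called, again without the share over all probe sets. The median change of the 5 members was -0.03 log2 against medium and -0.05 against insulin, where that of all tested genes was 0.02 in both.

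With insulin against medium, 0 of 5 tested members and 0 of 11 probe sets were called by limma, where 2.45% of tested genes (300, 1.25% higher and 1.2% lower) and 0.485% of probe sets were called. CEBPA and NKX2-1 had unadjusted p under 0.05. CEBPA stood at -0.26 ± 0.07 log2 (SE, 95% interval -0.40 to -0.11, adjusted p = 0.058), and 79 of 12239 genes (0.645%) were at least as far below medium. It was called without medium replicate 3 (-0.30, adjusted p = 0.047), as the mean over probe sets (adjusted p = 0.036) and with array weights (adjusted p = 0.020, where alternatives gave 0.020 to 0.9999). Since CEBPA has 1 probe set, the mean over probe sets left its own values unchanged. NKX2-1 stood at 0.22 ± 0.07 (0.06 to 0.38, adjusted p = 0.14) and was called without insulin replicate 2 (0.30, adjusted p = 0.040, where alternatives gave 0.040 to 0.9999). The count of 300 fell to 57 on leaving out insulin replicate 3 and to 145 on leaving out insulin replicate 1, and for medium to 62 (replicate 2) and 187 (replicate 1). The actin controls, which gauge RNA quality, read 3.19 ± 0.08 log2 more at the 3' end than at the 5' end with insulin, and 3.02 ± 0.06 more in medium (SD, n = 3 each). This difference of 0.17 had an exact permutation p of 0.1, the smallest possible, and 0.225 adjusted over 9 tests. The same difference for the GAPDH controls was 0.0042 (exact permutation p = 0.8). The part of RNA quality in these values was not tested.

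**Figure D4:**
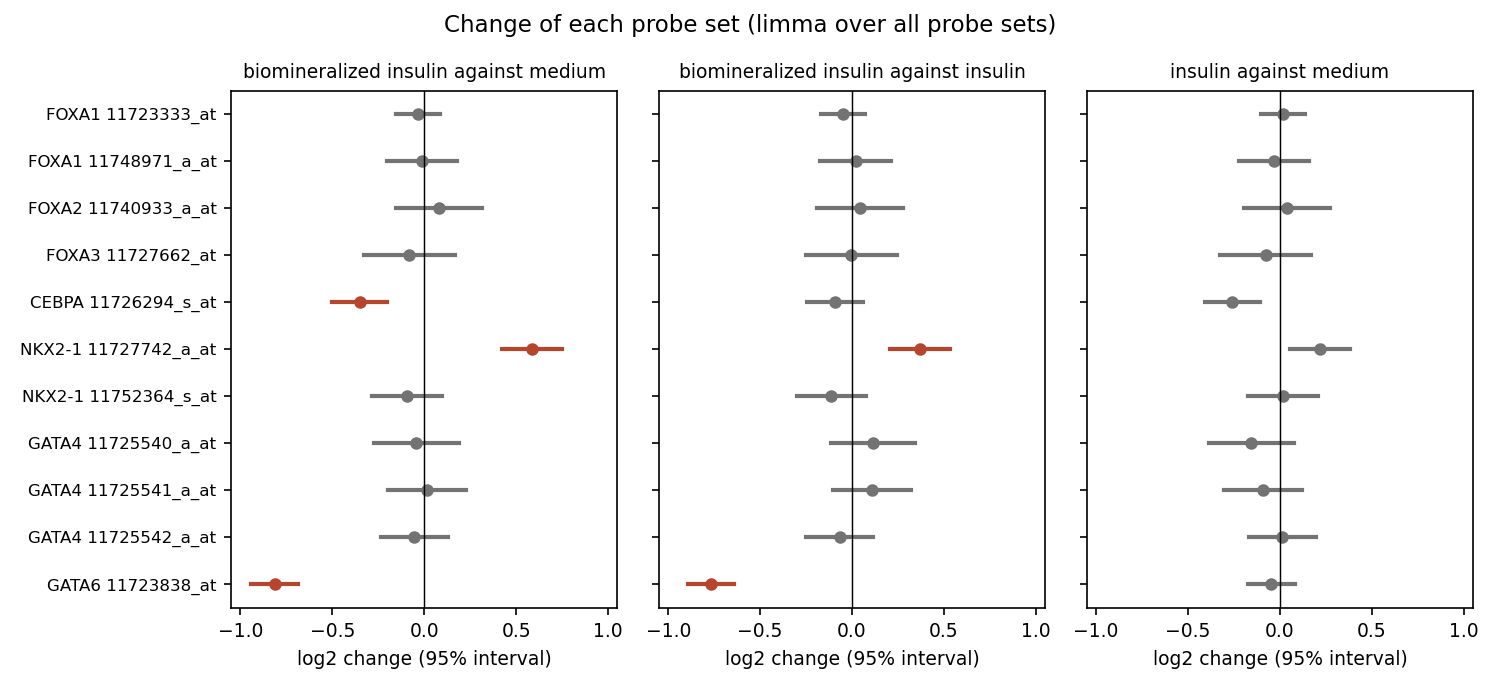
Log2 change of each of the 11 probe sets with 95% interval, fitted over all probe sets, for BI against medium, BI against insulin and insulin against medium (3 arrays each). Red marks the called ones: GATA6, CEBPA and NKX2-1 on 11727742_a_at in the first panel, GATA6 and NKX2-1 on 11727742_a_at in the second, and none in the third.

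**Figure D5:**
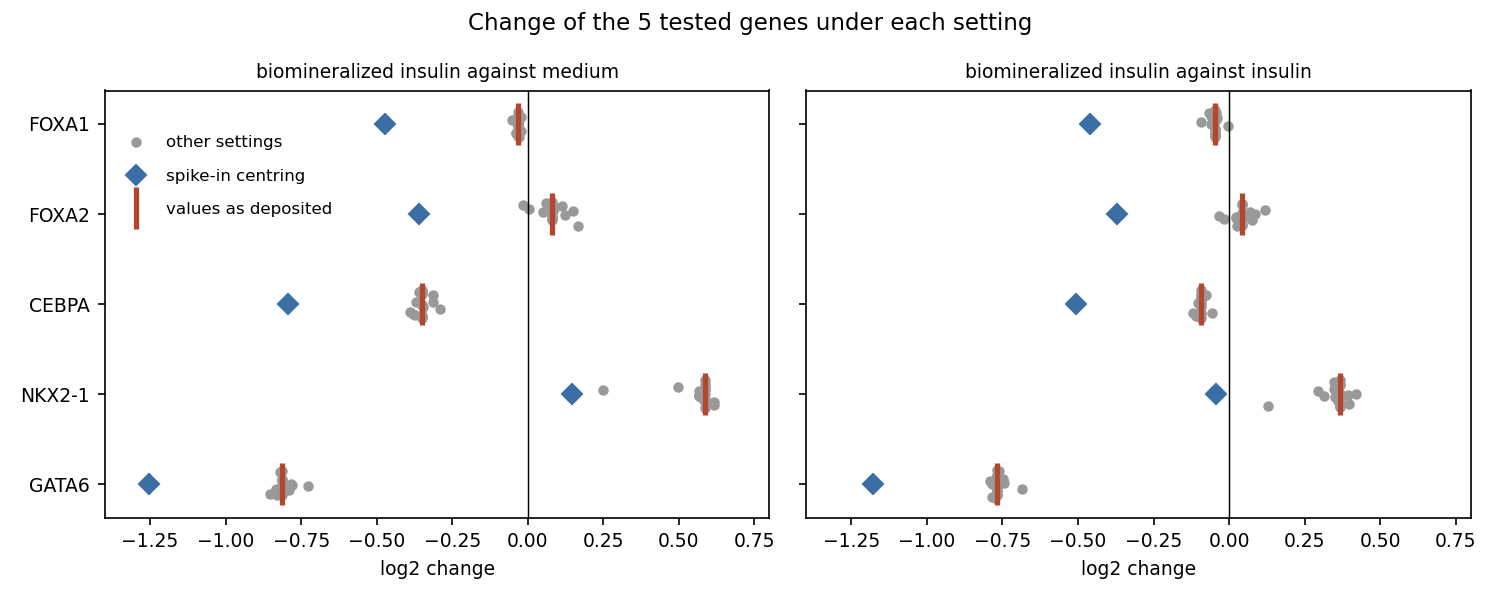
Log2 change of the 5 tested members with the deposited values (red bars), after centring on the spike-in controls (blue diamonds) and under each other alternative (grey points), for BI against medium and BI against insulin. GATA6 stays between -1.25 and -0.73 in the first panel, while the blue diamond of NKX2-1 lies at 0.15 there and at -0.044 in the second.

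Other transcription factors of liver moved in both directions with BI. Of 13 other liver-enriched factors tested, 6 rose and 4 fell against medium, and 7 were higher and 4 lower against insulin, with a median BI minus medium change of 0.15 log2. Over all tested genes, the background for this and the following lists, 50.9% were called against medium (25.7% higher, 25.2% lower) and 44.4% against insulin, and the median change was 0.02 in both. CEBPB, the acute-phase relative of CEBPA, fell by 0.73 ± 0.04 log2 (SE, 3 arrays against 3, adjusted p = 6.2e-10). NR2F6, an orphan nuclear receptor, rose by 0.50 ± 0.04 (adjusted p = 1.7e-08), but stood at 0.061 with no call after spike-in centring (adjusted p = 0.61, where alternatives gave 3.6e-09 to 0.61). TCF7L2, a factor of Wnt signalling, fell by 0.39 ± 0.04. TBX3, a T-box factor of liver bud growth, rose by 0.36 ± 0.03, with 1 of its 4 probe sets at -0.11 and with -0.078 after spike-in centring. 

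Among relatives of the members in the FOX, GATA, CEBP and NKX2 families, the changes with the lowest p were falls. Of 18 tested, 1 rose and 5 fell with BI against medium and 12 were not called, where 50.9% of all tested genes were called, and the 5 called against insulin were all lower, with a median BI minus medium change of -0.05 log2. DDIT3, the CEBP relative induced by endoplasmic reticulum stress and also called CHOP, fell by 2.90 ± 0.06 log2 (adjusted p = 1.2e-15). CEBPG, a partner of ATF4, fell by 2.05 ± 0.04 (adjusted p = 2.1e-16). FOXO1, the forkhead factor that insulin signalling keeps out of the nucleus, fell by 0.84 ± 0.04 (adjusted p = 1.1e-10). With insulin against medium CEBPG fell by 0.15 ± 0.04 (adjusted p = 0.034), the 1 call of the list, which was lost without medium replicate 1, 2 or 3 and without insulin replicate 1 or 3 (adjusted p = 0.060 to 0.197, where alternatives gave 0.0116 to 0.9999).

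Partners and coactivators of the members mostly fell where they were called. Of 14 tested, 1 rose and 7 fell with BI against medium, where 25.7% of all genes were called higher and 25.2% lower, and the 8 called against insulin were all lower, with a median BI minus medium change of -0.16 log2, where that of all genes was 0.02. COP1, a ubiquitin ligase that acts on CEBP proteins, fell by 0.39 ± 0.04 (adjusted p = 1.4e-06). PPARGC1A, a coactivator of gluconeogenic and mitochondrial genes, fell by 0.35 ± 0.05 and NCOA1, a nuclear receptor coactivator, by 0.36 ± 0.06. CREBBP, a histone acetyltransferase, fell by 0.38 ± 0.04, but stood at 0.023 without probe sets that can bind several genes.

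Most hepatocyte and lung epithelial genes passed no test. Of 11 hepatocyte genes tested, 1 was called in either BI comparison, TFR2, a transferrin receptor that senses iron, which rose by 0.75 ± 0.08 log2 against medium (adjusted p = 1.0e-06), and by 0.31 after spike-in centring. Of 15 lung epithelial genes, 4 rose and 1 fell against medium, and the 2 called against insulin were higher. LPCAT1, a surfactant lipid enzyme, rose by 1.27 ± 0.04 (adjusted p = 1.1e-12), and by 0.83 after spike-in centring. MUC1, a membrane mucin, rose by 0.27 ± 0.06, ABCA3, a surfactant lipid transporter, by 0.24 ± 0.06 and CEACAM6, an adhesion gene, by 0.31 ± 0.09, and after spike-in centring these 3 stood at -0.17, -0.20 and -0.13. Without cross-hybridizing probe sets MUC1 was at 0.16 and not called (adjusted p = 0.19, where alternatives gave 0.00031 to 0.19). CEACAM6 was no longer called on leaving out medium replicate 2 (adjusted p = 0.059) or BI replicate 1 (adjusted p = 0.053, where alternatives gave 0.0016 to 0.34). With insulin, LPCAT1 rose by 0.18 ± 0.04 (adjusted p = 0.042), a call lost under 8 of 9 single-array omissions, all but that of insulin replicate 1 (adjusted p = 0.056 to 0.234, where alternatives gave 0.031 to 0.9999). Among 8 lung and airway factors, 2 were called against medium, both lower, and 1 was higher and 3 lower against insulin. KLF5, a Kruppel-like factor, fell with BI by 1.01 ± 0.06 (adjusted p = 8.6e-10) and ETV5, an ETS factor of FGF signalling, by 0.97 ± 0.06 (adjusted p = 1.0e-09).

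The mean of each marker list on each array was compared between the groups, and many of the ranges overlapped. The mean over 39 hepatocyte genes was 4.27 to 4.30 log2 on BI arrays, 4.22 to 4.27 on insulin arrays and 4.23 to 4.31 on medium arrays. That over 21 lung epithelial genes was 5.60 to 5.66 on BI arrays, 5.48 to 5.50 on insulin arrays and 5.41 to 5.55 on medium arrays. That over 16 lung and airway factors was 5.22 to 5.26 with BI, 5.32 to 5.34 with insulin and 5.29 to 5.34 in medium. Among 8 mesenchymal genes the mean was 8.84 to 8.89 with BI, 8.90 to 8.99 with insulin and 8.88 to 8.96 in medium, and among 11 intestine genes it was 3.74 to 3.78 with BI, 3.67 to 3.73 with insulin and 3.65 to 3.75 in medium. The part of any of these in the changes of the members was not tested.

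Structural genes of epithelial and mesenchymal cells moved in both directions. Of 6 general epithelial genes tested, 2 rose and 2 fell with BI against medium, and 1 was higher and 2 lower against insulin. CLDN7, a tight junction gene, fell by 1.72 ± 0.05 log2 (adjusted p = 1.2e-13) and KRT8, a keratin gene, rose by 1.04 ± 0.05 (adjusted p = 1.9e-11), and by 0.60 after spike-in centring. KRT7 fell by 0.16 ± 0.03, and KRT18 rose by 0.10 ± 0.03 but stood at -0.34 after spike-in centring and was not called without the intensity trend (adjusted p = 0.054, where alternatives gave 0.00025 to 0.054). With insulin against medium KRT8 rose by 0.26 ± 0.05 (adjusted p = 0.0084) and CLDN7 fell by 0.20 ± 0.05 (adjusted p = 0.048). The KRT8 call was lost without medium replicate 2 and without insulin replicate 3 (adjusted p = 0.058 and 0.063, where alternatives gave 0.0034 to 0.9999), and the CLDN7 call without any 1 of the 3 medium arrays, insulin replicate 1 or 3, or BI replicate 1 (adjusted p = 0.062 to 0.185, where alternatives gave 0.018 to 0.9999). Of 8 mesenchymal genes, 3 rose and 3 fell with BI against medium, and 3 were higher and 3 lower against insulin. FN1, fibronectin, rose by 0.92 ± 0.10 and VIM by 0.27 ± 0.02, which after spike-in centring stood at 0.47, still called, and at -0.17, while SNAI2 fell by 0.70 ± 0.04 and ZEB1 by 0.51 ± 0.05, both encoding repressors of epithelial genes. Of 3 fetal liver and hepatoma genes, 1 rose and 1 fell against medium, and 1 was called against insulin, higher. SPINK1, a trypsin inhibitor, rose by 0.61 ± 0.14 (adjusted p = 0.0016), but stood at 0.17 with no call after spike-in centring (adjusted p = 0.26, where alternatives gave 5.8e-05 to 0.26). TOP2A, a topoisomerase of dividing cells, fell by 0.15 ± 0.05 (adjusted p = 0.018), a call lost without medium replicate 2 or 3 and without BI replicate 1 or 3 (adjusted p = 0.053 to 0.094, where alternatives gave 4.1e-07 to 0.094).

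Other genes followed the 3 called members closely over the 9 arrays. Likeness was taken as Pearson's r of log2 values over 9 arrays in 3 groups, so it mostly reflects the group means that these genes share. Most like GATA6 were ADGRG6, an adhesion receptor (r = 0.998), MTHFD2, a mitochondrial folate enzyme (0.997), and JMY, a regulator of actin (0.997), which stood at -0.72, -1.02 and -1.03 log2 in BI against medium. For GATA6, 868 of the tested genes had r over 0.95. Most like NKX2-1 were EXOC8, an exocyst subunit (r = 0.991), DIXDC1, of the Wnt pathway (0.990), and SSR1, of the endoplasmic reticulum translocon (0.989), which stood at 0.48, 0.60 and 0.33, with 215 genes over 0.95. Most like CEBPA were CDK4, a cell cycle kinase (r = 0.975), DMAP1, a chromatin factor (0.961), and MAP3K14, a kinase of the NF-kappaB pathway (0.959), which stood at -0.24, -0.29 and -0.22, with 8 genes over 0.95.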

How the data were processed

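Biotin-labelled cRNA of 9 samples was hybridised to one-colour Affymetrix arrays, per the labels' protocols (3' in vitro transcription kit). The authors deposited log2 expression values per probe set, between 2.02 and 14.3. The program behind these values was not given in the sources used here, and scanner files were not used here. Groups and replicate numbers came from the sample titles, and 0 value columns were left unused. Probe sets were named by the platform annotation: 44988 of 49395 had 1 gene symbol, 1832 several and 2473 none, besides 102 control features. Symbols were updated through Entrez identifiers with RefSeq (GRCh38.p14) for 44961. Promoter windows are RefSeq's and were matched by symbol for 6 of the 8 genes. Those of FOXA2 and GATA4 were not used here.

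All 9 arrays entered one limma model of 3 group means (limma 3.58.1 in R 4.3.3: lmFit, then eBayes using the trend of variance with intensity, Benjamini-Hochberg adjustment, threshold 0.05), which left 6 residual degrees of freedom. It was fitted to the brightest probe set of each gene above the filter (12239 genes) and to all 49293 probe sets other than control features. The code was tested on simulated data. The number of arrays limits the precision. The members, the 11 gene lists, including cell type markers, and the tests were chosen with earlier results of these data known. Named besides the members are up to 4 called genes of lowest p per list in either comparison with medium, preset marker genes and the 3 genes most like each called member. Lists in BI against insulin are given as counts. The list of 7 antisense and neighbouring long RNAs had 1 with a probe set, SFTA3, below the filter at 2.60 log2. Same-numbered arrays of different groups did not deviate together (r of -0.16 to 0.14, over 0.1 in 1 of 9 pairs), so numbers were not taken to pair arrays. Alternatives covered the replicate block, arrays in the fit, centring, an offset of 16, filters, probe set choice, variance model, array weights, thresholds and single-array omissions. Figures were drawn with matplotlib 3.10.9.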

Additional observations from a re-analysis of the deposited data

Results flagged for a closer look

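The poly-A spike-in controls, which enter no comparison of genes, were brighter by 0.44 log2 on BI arrays than on medium arrays. BI arrays averaged 7.80 ± 0.17 log2 and medium arrays 7.36 ± 0.08 (SD, n = 3 each), and the lowest BI array (7.68) lay above the highest medium array (7.46). The two-sided exact permutation p was 0.1, the smallest that 3 against 3 allows. The part of this difference in the changes of the members was not tested.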

How the results depend on the processing

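Of 321 alternative values for the members' changes, 309 kept their side of the threshold and, where called, their direction. Of the rest, 2 lost a call, 7 gained one and 3 turned round with a call before or after. Values without a call before and after were counted as kept whatever their direction. In insulin against medium, FOXA1 ran from -0.029 to 0.059 and FOXA2 from -0.056 to 0.13, without a call. The 3 that turned round with a call before or after came from spike-in centring. They were FOXA2 at -0.36 in BI against medium and -0.37 in BI against insulin, and NKX2-1 at -0.044 in BI against insulin. Of 693 values for the other named genes, 627 kept call and direction, 59 lost a call and 7 turned round. The 7 were TBX3 (-0.078), MUC1 (-0.17), ABCA3 (-0.20), CEACAM6 (-0.13), KRT18 (-0.34) and VIM (-0.17) after spike-in centring, and CREBBP (0.023) without cross-hybridizing probe sets, all in BI against medium. Members called in insulin against medium numbered 1 with the mean of probe sets, 1 with array weights and 0 to 1 over the single-array omissions, where the deposited setting gave 0. Members called in BI against insulin numbered 4 after spike-in centring and 1 with the mean of probe sets, where the deposited setting gave 2. Member probe sets called after spike-in centring were 10 in BI against medium and 10 in BI against insulin. Over all genes, insulin against medium gave 5 with spike-in centring, 190 with median centring, 37 without the trend, 605 with array weights, 152 from its own 6 arrays alone, 66 at an adjusted p of 0.01, 199 without cross-hybridizing probe sets, 177 with each gene's most variable probe set and 57 to 425 over the single-array omissions. Spike-in centring gave 9544 in BI against medium and 9606 in BI against insulin. The cause of these shifts was not tested. With the replicate number as a block, 0, 3 and 2 members and 226, 6081 and 5302 genes were called in insulin against medium, BI against medium and BI against insulin, and no member's call changed. Background correction and a slide or scan block were not run, since scanner files were not used here.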
